A study of Homo sapiens with 6 samples.

Results

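The genes described here are 10 members of epidermal growth factor (EGF) signalling, taken by symbol from a table of 60605 genes, with 1 row for each symbol. They are the ligand genes AREG, EREG, HBEGF, TGFA and BTC, the receptor genes EGFR, ERBB2 and ERBB3, the receptor inhibitor gene ERRFI1 and the sheddase gene ADAM17. RNA came from HepG2, a long-established line from a human liver tumour, labelled wild type. The cells had been infected with a lentivirus carrying either a hairpin against circFTO (sh-circFTO, 3 libraries) or a control hairpin (sh-control, 3 libraries). The FTO gene gives rise to circFTO, an RNA closed into a circle, and all cells grew in DMEM with serum. One label names the cells epithelial, and a different label names them mesenchymal. Separate cultures are not stated for the 3 libraries of a group, nor is the number of hairpins, so a p-value speaks for the spread among these libraries alone, which may be technical.

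EGF ligands are made as membrane-anchored precursors, and metalloproteases such as ADAM17 cut them free. A released ligand binds an ERBB receptor on the same or a neighbouring cell, the receptors pair, and their kinase domains signal through the RAS-ERK and PI3K-AKT pathways. AREG and TGFA bind EGFR, and EREG, HBEGF and BTC bind EGFR and ERBB4. ERBB2 has no known ligand of its own and serves as a partner for the other receptors. ERBB3, a receptor for neuregulins, has little kinase activity and couples strongly to PI3K. In liver these genes are known for their part in regeneration after injury and in hepatocellular carcinoma.

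AREG and EREG lie 56.4 kb apart on chromosome 4. AREG was called in the comparison below, while EREG lay under its level filter and was not tested there. The 250 bases before each start site are shown here 5′ to 3′, from RefSeq on GRCh38.p14, both on the plus strand. The AREG window is chr4:74444886-74445135 and the EREG window is chr4:74364895-74365144.
AREG: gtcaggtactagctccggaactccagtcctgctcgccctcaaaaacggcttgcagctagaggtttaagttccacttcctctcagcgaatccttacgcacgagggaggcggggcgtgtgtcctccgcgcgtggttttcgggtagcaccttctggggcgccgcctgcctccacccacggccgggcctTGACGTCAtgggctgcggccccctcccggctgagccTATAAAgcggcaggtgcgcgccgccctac
EREG: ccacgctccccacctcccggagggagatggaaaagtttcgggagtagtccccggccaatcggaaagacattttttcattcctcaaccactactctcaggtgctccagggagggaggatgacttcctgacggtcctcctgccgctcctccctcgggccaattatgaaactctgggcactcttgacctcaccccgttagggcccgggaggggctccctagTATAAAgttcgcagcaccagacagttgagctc
Capitals mark matches to the motifs searched. The AREG window held the cAMP response element TGACGTCA, which binds CREB and ATF proteins, from 65 to 58 bases before the start site. Of 35116 RefSeq promoter windows of this length, 1.65% held that element on either strand. Both windows held the TATA box letters TATAAA on the gene strand, from 29 to 24 bases before the AREG start and from 32 to 27 before the EREG start, against 6.80% of windows. Neither window matched TGANTCA (AP-1, in 6.57% of windows), CACGTG (E-box, in 6.34%) or TGATGNAA (an ATF4 element, in 3.14%), searched on both strands. None of these motifs overlaps another in the windows shown. Of the 10 genes, 9 were in the RefSeq promoter table; ERBB3 was not matched. Outside AREG and EREG the matches were TGATTCA before ERBB2 and, before the downstream of 2 EGFR start sites, the AP-1 letters at 2 places and the TATA box letters at 2 places. A match is a description of letters, not of a bound factor.

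Depth ran from 13361333 to 15809084 counts over the sh-circFTO libraries and from 14932270 to 16178079 over the sh-control libraries. FTO itself, whose gene-level counts do not measure circFTO, stood at 57.1 ± 1.97 CPM in sh-circFTO and 57.4 ± 1.89 CPM in sh-control (SD, n = 3 each). Its log2 fold change was -0.01 (adjusted p = 0.937 in edgeR), or 0.14 (adjusted p = 0.0413) when scaled by library size alone. CPM here is the count scaled to the library total after TMM scaling. A gene was tested where its FPKM reached 1 in 3 or more libraries. Of the 12865 such genes, 69.7% passed the quasi-likelihood test of edgeR at an adjusted p of 0.05, 34.9% higher and 34.8% lower in sh-circFTO. TMM sets these directions against the bulk of genes. When libraries were scaled by their size alone, the median log2 fold change shifted by 0.145 and 62.2% of calls were higher, against 50.1% with TMM scaling. All 8 hepatocyte markers were expressed, and 7 fell and 1 rose, or 5 and 1 when scaled by library size alone. The hepatocyte markers summed to 3412 to 3499 FPKM in sh-circFTO and 4225 to 4332 in sh-control. Their log2 fold changes ran from -1.59 for APOB, the apolipoprotein B gene, to -0.21 for ALB among those that fell. HNF4A, which encodes a hepatocyte transcription factor, fell by 1.17. The marker that rose was FGB, by 0.72, with 312 CPM in sh-circFTO and 189 CPM in sh-control. The fibroblast markers summed to 0.420 to 0.700 FPKM in sh-circFTO and 0.560 to 0.790 in sh-control, and none of 6 passed the level filter. The blood markers summed to 0.890 to 1.08 FPKM in sh-circFTO and 0.340 to 0.540 in sh-control. PTPRC, HBB and CD163 had 0 counts in every library, so these sums came from CD68, CD14 and CSF1R. The endothelial markers summed to 9.60 to 10.0 FPKM in sh-circFTO and 1.27 to 1.84 in sh-control. TIE1 and PECAM1 were higher in sh-circFTO, while KDR was at 0 counts in every library and CDH5 had 2 counts over sh-circFTO and 4 over sh-control. The part of these markers in the results that follow was not tested, and in bulk RNA fewer cells of a kind cannot be told apart from less RNA per cell.

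Among the 10 genes, 8 passed the level filter, 4 were called higher (AREG, EGFR, ERBB2 and ADAM17) and 3 lower (TGFA, ERBB3 and ERRFI1) in sh-circFTO. HBEGF did not pass the test, and EREG and BTC lay under the filter. A call was thus made for 87.5% of the 8, beside 69.7% of all genes tested. The groups did not overlap in any of the 7 called genes, as was so for 71.5% of all genes tested. EGFR passed the filter only through its sh-circFTO libraries and TGFA only through its sh-control libraries, so for these 2 genes the filter itself favoured a difference. Under edgeR's own filter on counts, filterByExpr, which set its limit on counts rather than FPKM, both were called too, EGFR at 1.11 and TGFA at -0.94 on the log2 scale. The direction and call of each of the 8 genes held under all 12 alternative settings tried.

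**Figure D1:**
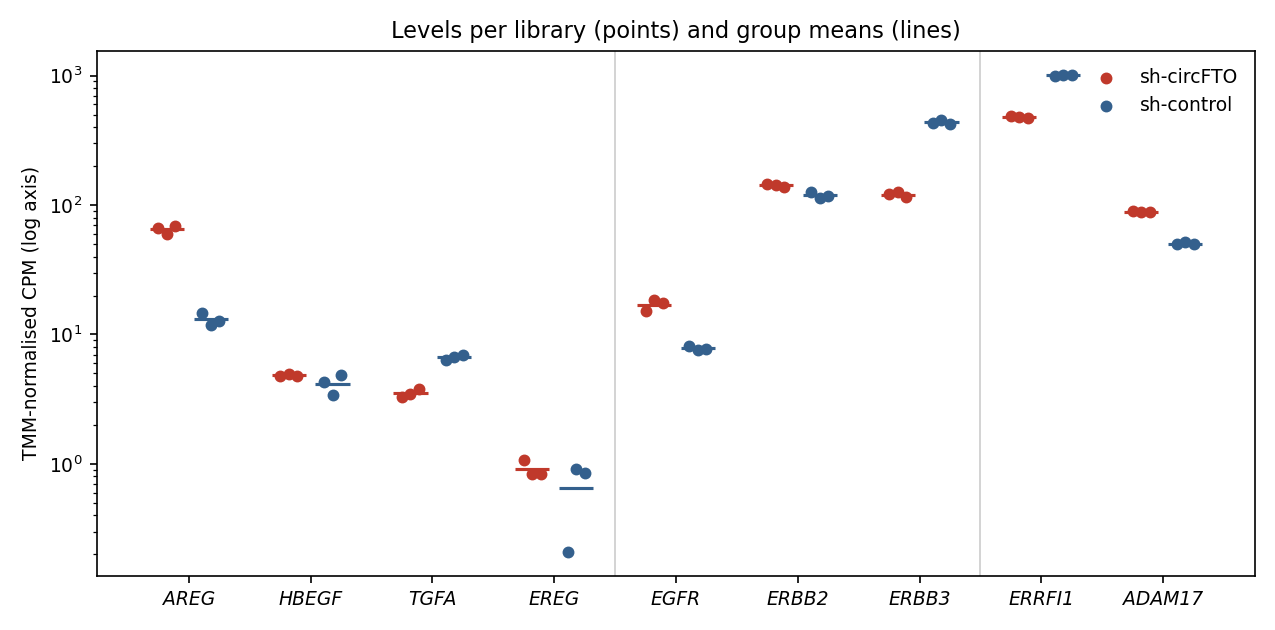
Points give TMM-normalised CPM on a log axis in each of the 3 sh-circFTO and 3 sh-control libraries, and lines give group means. The sh-circFTO points of AREG (59.7 to 68.6 CPM) lie above its sh-control points (11.8 to 14.7 CPM), those of ERBB3 (115 to 125 CPM) lie below (423 to 453 CPM), and the HBEGF and EREG groups overlap; BTC had 0 counts and is not drawn.

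Of the ligands, AREG changed most. AREG (ENSG00000109321, chromosome 4 from 74445136 to 74455005) encodes amphiregulin, an EGFR ligand that binds heparin. Its level was 66.4, 59.7 and 68.6 CPM in the sh-circFTO libraries, against 14.7, 11.8 and 12.8 CPM in the sh-control libraries. Every sh-circFTO library lay above every sh-control library. Over the groups this came from 2995 counts in sh-circFTO and 573 in sh-control. The rise was 4.96-fold, a log2 fold change of 2.31 (SE 0.0863, Benjamini-Hochberg adjusted p = 8.10e-20 in edgeR). Only 1.52% of the genes tested had a log2 fold change as high or higher, which put AREG at rank 196 of 12865. AREG and EGFR were among the 7.07% of all genes tested that were called and at least 2-fold higher, and ERBB3 and ERRFI1 among the 7.62% called and at least 2-fold lower.

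TGFA (ENSG00000163235, chromosome 2 from 70447284 to 70554193) encodes transforming growth factor alpha, an EGFR ligand that hepatocytes make during liver regeneration. It had 3.28, 3.49 and 3.79 CPM in the sh-circFTO libraries, against 6.36, 6.76 and 6.94 CPM in the sh-control libraries, where it was higher in every library. TGFA fell by 0.92 on the log2 scale (SE 0.180, adjusted p = 4.40e-05 by quasi-likelihood test in edgeR). The counts behind it were 163 over sh-circFTO and 293 over sh-control. HBEGF (ENSG00000113070, chromosome 5 from 140332843 to 140346603) encodes heparin-binding EGF-like growth factor. It had 4.77, 4.99 and 4.82 CPM in the sh-circFTO libraries, against 4.26, 3.38 and 4.88 CPM in the sh-control libraries. The groups overlapped, because sh-control replicate 3 lay within the sh-circFTO range. The log2 fold change of HBEGF was 0.22 (95% interval -0.17 to 0.62, adjusted p = 0.308 by quasi-likelihood test in edgeR), so no difference was detectable at this depth.

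EREG and BTC, which also lie in the chromosome 4 cluster, were near or at 0. EREG (ENSG00000124882, 74365145 to 74388749), which encodes epiregulin, had 15, 14 and 13 counts in the sh-circFTO libraries, against 3, 14 and 12 in the sh-control libraries. Only the first sh-control library stood apart from the rest. In the filterByExpr fit, where 65.5% of genes were called, the log2 fold change of EREG was 0.44 (95% interval -0.52 to 1.41, adjusted p = 0.424 by quasi-likelihood test in edgeR). BTC (ENSG00000174808, 74744759 to 74794523), which encodes betacellulin, had 0 counts in every library, where 3 counts in a library is the limit that a count of 0 allows. That limit covers counting error only.

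The ligand RNA was therefore mostly AREG in both groups on the FPKM scale, which divides by the exonic length of each gene. Comparisons between genes depend on that length, and RNA does not measure the ligand protein. The 5 ligand genes summed to 45.1, 40.9 and 46.7 FPKM in sh-circFTO and to 11.2, 9.34 and 10.4 FPKM in sh-control. AREG made up 94.0% ± 0.471 of that sum in sh-circFTO and 73.5% ± 2.82 in sh-control (SD, n = 3 each). HBEGF made up 3.89% ± 0.359 and TGFA 1.71% ± 0.143 in sh-circFTO, against 12.8% ± 1.83 for HBEGF and 12.6% ± 1.53 for TGFA in sh-control. For the sum and for these 3 shares an exact two-sided permutation test gave p = 0.1, the lowest value possible with groups of 3. Shares and ratios within a library do not depend on the scaling between libraries.

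**Figure D2:**
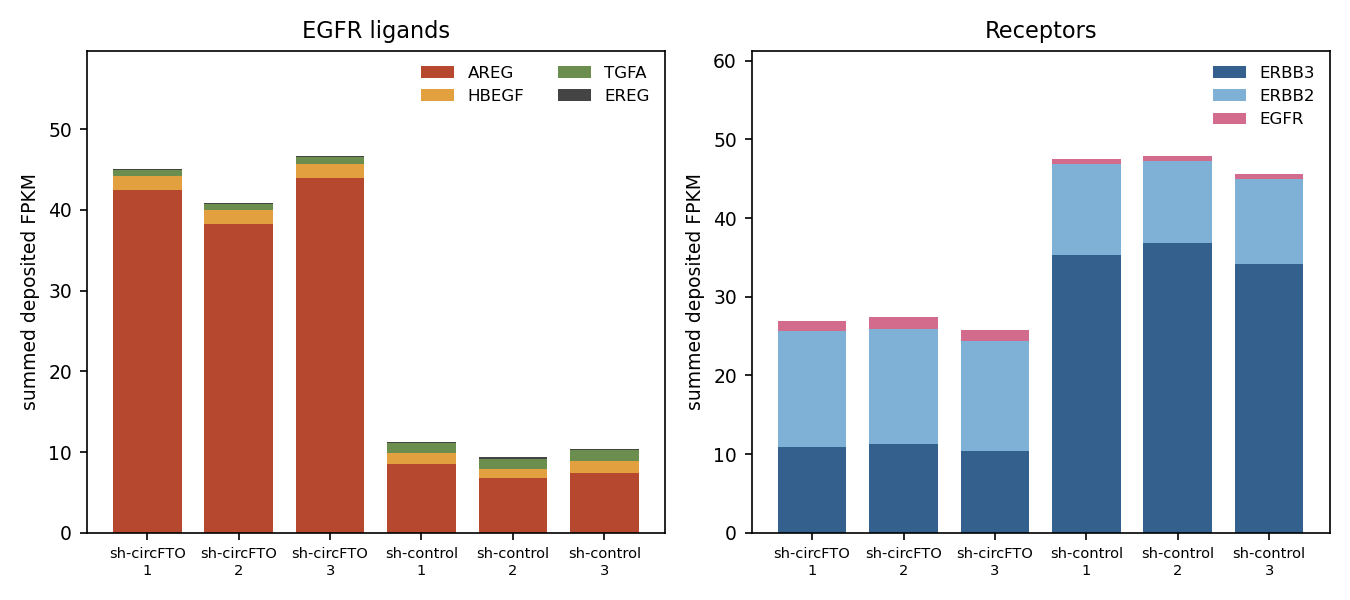
Stacked bars give deposited FPKM in each library, for the ligand genes on the left and the receptor genes on the right, with the 3 sh-circFTO libraries before the 3 sh-control libraries. The ligand sums are 40.9 to 46.7 FPKM in sh-circFTO and 9.34 to 11.2 in sh-control; the receptor sums are 25.8 to 27.4 FPKM in sh-circFTO and 45.6 to 47.9 in sh-control, where ERBB3 is the tallest segment.

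The 3 receptor genes did not move together. ERBB3 (ENSG00000065361, chromosome 12 from 56076799 to 56103505), the neuregulin receptor, had 121, 125 and 115 CPM in the sh-circFTO libraries, against 433, 453 and 423 CPM in the sh-control libraries. Its sh-circFTO libraries all lay far below its sh-control libraries. ERBB3 fell by 1.86 on the log2 scale (SE 0.0440, adjusted p = 2.29e-24 by quasi-likelihood test in edgeR), and 1.22% of the genes tested had a log2 fold change as low or lower. Its counts were 5573 over sh-circFTO and 19151 over sh-control.

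EGFR (ENSG00000146648, chromosome 7 from 55019017 to 55211628), the receptor that binds amphiregulin, had 15.2, 18.4 and 17.4 CPM in the sh-circFTO libraries, against 8.10, 7.54 and 7.79 CPM in the sh-control libraries. All 3 sh-circFTO libraries were the higher ones. EGFR rose by 1.13 on the log2 scale (SE 0.123, adjusted p = 2.53e-09 by quasi-likelihood test in edgeR). EGFR-AS1, an antisense gene within EGFR, held 348 counts over sh-circFTO and 441 over sh-control, beside 791 and 342 for EGFR in that order. Whether the counting used strand is not given in the sources used here, so reads of this pair cannot be told apart. ERBB2 (ENSG00000141736, chromosome 17 from 39687914 to 39730426) had 145, 143 and 138 CPM in the sh-circFTO libraries, against 125, 114 and 118 CPM in the sh-control libraries. These groups lay close together without overlapping. ERBB2 rose by 0.26 on the log2 scale (SE 0.0476, adjusted p = 2.48e-05 by quasi-likelihood test in edgeR), and by 0.40 when scaled by library size alone. It shares its span with MIEN1 and PGAP3 on the other strand.

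Per length, the main receptor gene was ERBB2 in sh-circFTO and ERBB3 in sh-control. ERBB3 made up 40.5% ± 0.536 of the summed FPKM of EGFR, ERBB2 and ERBB3 in sh-circFTO and 75.4% ± 1.33 in sh-control. ERBB2 made up 54.2% ± 0.802 in sh-circFTO and 23.3% ± 1.27 in sh-control. EGFR was the least abundant of the 3 in both groups, at 5.36% ± 0.514 in sh-circFTO and 1.26% ± 0.0629 in sh-control. The ratio of ERBB3 to ERBB2 was 0.736, 0.771 and 0.736 in the sh-circFTO libraries, against 3.05, 3.51 and 3.16 in the sh-control libraries. The order of the 2 genes was thus the opposite in every sh-circFTO library from that in every sh-control library. The sum of the 3 receptors was 26.7 ± 0.813 FPKM in sh-circFTO and 47.0 ± 1.22 FPKM in sh-control. Each of these differences had an exact two-sided permutation p of 0.1, the smallest possible with 3 libraries against 3.

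ERRFI1 and ADAM17 act on either side of the receptor. ERRFI1 (ENSG00000116285, chromosome 1 from 8004404 to 8026309), also known as MIG6, encodes a feedback inhibitor that binds the EGFR kinase domain. It had 490, 478 and 473 CPM in the sh-circFTO libraries, against 992, 1013 and 1017 CPM in the sh-control libraries. The groups lay well apart, and ERRFI1 fell by 1.07 on the log2 scale (SE 0.0359, adjusted p = 6.24e-21 by quasi-likelihood test in edgeR). The ratio of ERRFI1 to EGFR in FPKM was 85.2 ± 9.78 in sh-circFTO and 387 ± 19.6 in sh-control (exact two-sided permutation p = 0.1). ADAM17 (ENSG00000151694, chromosome 2 from 9488486 to 9556732) encodes the main protease that releases AREG, TGFA and HBEGF. It had 90.01, 88.25 and 88.03 CPM in the sh-circFTO libraries, against 50.07, 51.64 and 49.55 CPM in the sh-control libraries. ADAM17 rose by 0.82 on the log2 scale (SE 0.0557, adjusted p = 1.20e-13 by quasi-likelihood test in edgeR). IAH1, on the other strand within the same span, had 667 counts over sh-circFTO and 760 over sh-control, beside 4102 and 2212 for ADAM17 in that order.

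**Figure D3:**
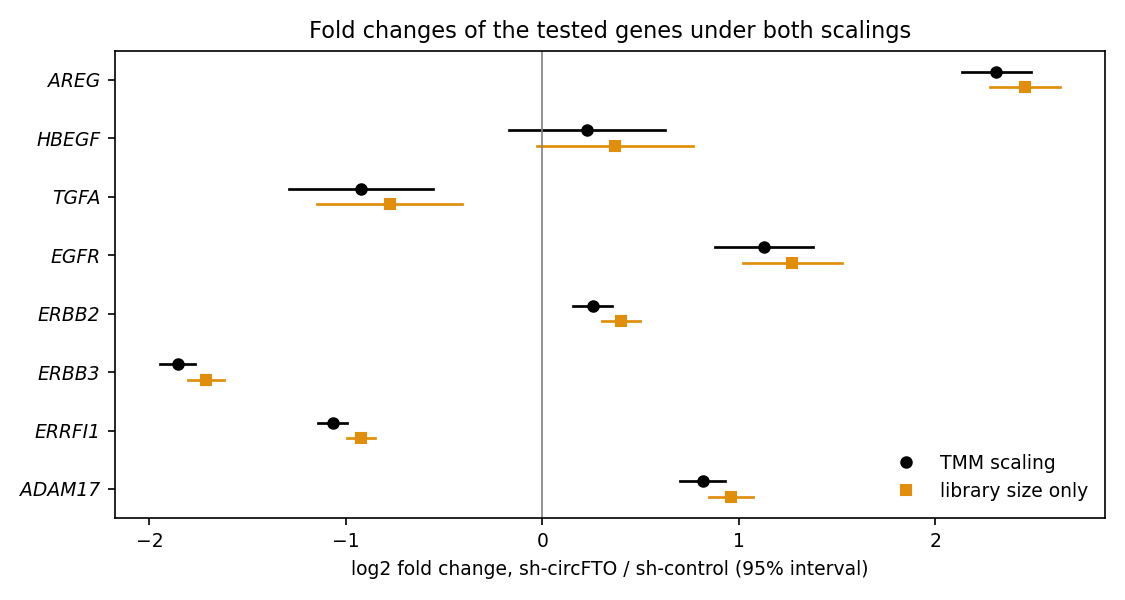
Each gene's log2 fold change of sh-circFTO over sh-control is drawn with its 95% interval, with TMM scaling (circles) and when scaled by library size alone (squares). AREG (2.31) and ERBB3 (-1.86) lie farthest from 0 on either side, and only the intervals of HBEGF include 0.

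Ordered by FPKM, the sh-circFTO libraries ran from ERRFI1 (121) through AREG (41.6), ERBB2 (14.5), ERBB3 (10.8), ADAM17 (8.70), HBEGF (1.71), EGFR (1.43), TGFA (0.753) and EREG (0.170) to BTC (0). In the sh-control libraries the order was ERRFI1 (229), ERBB3 (35.4), ERBB2 (11.0), AREG (7.59), ADAM17 (4.47), HBEGF (1.33), TGFA (1.29), EGFR (0.593), EREG (0.110) and BTC (0). AREG thus stood above both abundant receptors in sh-circFTO and below both in sh-control. HBEGF and TGFA overlapped in sh-control, at 1.07 to 1.55 and 1.23 to 1.33 FPKM, while no other neighbours in either order did. Profiles over the 6 libraries were compared as log2(CPM + 0.5) after subtracting each gene's sh-control mean, so that levels drop out. The 3 tested genes closest to AREG, the gene with the largest fold change of the 10, were STING1, MTMR11 and DGKA, at Euclidean distances of 0.265, 0.277 and 0.294. Their log2 fold changes of 2.39, 2.51 and 2.38 are near that of AREG because the genes were chosen by this distance. All 3 reached the FPKM filter in 3 sh-circFTO libraries, while in sh-control MTMR11 reached it in 2 and STING1 and DGKA in 0.

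The remaining ligand genes and ERBB4 all lay under the FPKM filter. NRG1, a neuregulin that binds ERBB3 and ERBB4, had 42, 45 and 46 counts in the sh-circFTO libraries, against 12, 22 and 7 in the sh-control libraries. The groups did not overlap, and in the filterByExpr fit NRG1 rose by 1.60 on the log2 scale (SE 0.342, adjusted p = 7.77e-05 by quasi-likelihood test in edgeR). NRG4, a ligand of ERBB4, had 24, 19 and 16 counts in the sh-circFTO libraries, against 2, 17 and 6 in the sh-control libraries. Its groups overlapped in CPM, and in the same fit the log2 fold change of NRG4 was 1.15 (SE 0.483, adjusted p = 0.0338), a rise. EGF had 0 counts over sh-circFTO and 4 over sh-control, and ERBB4 had 4 and 0 in that order. EPGN and NRG2 had 1 and 2 counts over sh-circFTO and 0 over sh-control, and NRG3 had 0 in every library.

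None of the other genes tested around the chromosome 4 cluster rose as much as AREG, a rise that only 1.52% of all genes tested reached. Within 1 Mb of the outer ends of AREG, EREG and BTC lay 52 genes, of which 8 passed the level filter. Among those under the filter, ENSG00000249942 had 38 counts over sh-circFTO and 0 over sh-control. That gene, picked after its values were seen, is described under Other observations. Besides AREG, 3 of the other 7 tested genes were called higher and 4 lower, with a median log2 fold change of -0.21. All 7 thus passed the test, beside 69.7% of all genes tested. CXCL8, which encodes a neutrophil chemokine, had 4.63 ± 0.0643 CPM in sh-circFTO and 11.2 ± 0.505 CPM in sh-control and fell by 1.27 on the log2 scale (adjusted p = 1.01e-08 by quasi-likelihood test in edgeR). The nearest tested neighbour of AREG was MTHFD2L, a mitochondrial folate enzyme, whose start lies 331 kb upstream and whose log2 fold change was 0.26. ALB and AFP, the albumin and alpha-fetoprotein genes, changed by -0.21 and -0.25, THAP6 by -0.24, RCHY1 by 0.30 and G3BP2 by 0.39. When scaled by library size alone, ALB and THAP6 lost their calls (adjusted p = 0.0721 for ALB and 0.415 for THAP6 by quasi-likelihood test in edgeR).

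**Figure D4:**
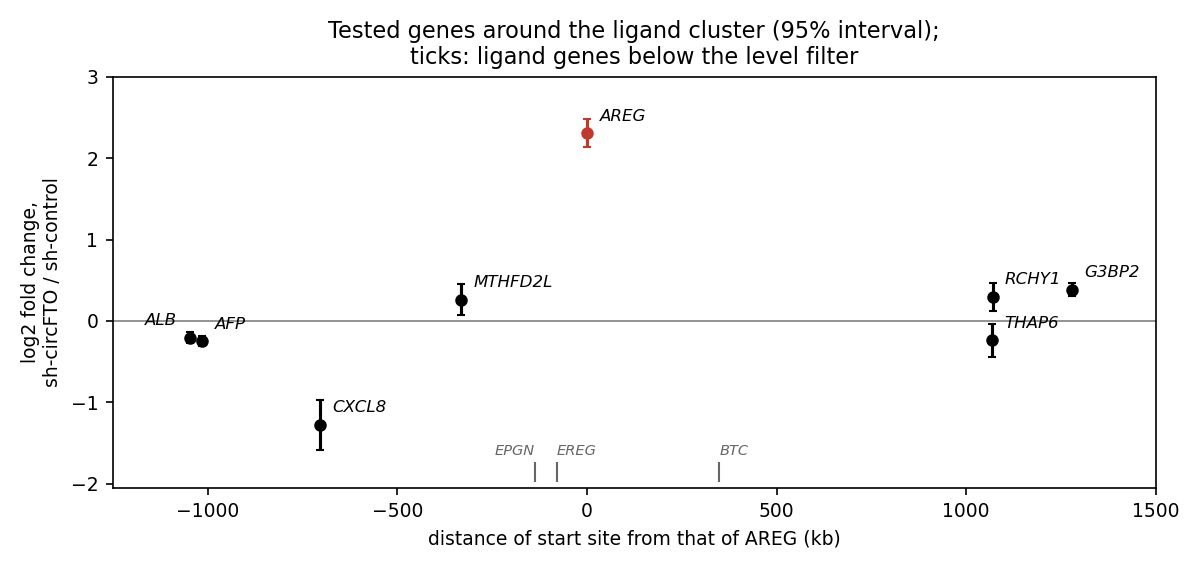
Log2 fold changes of the 8 tested genes around the ligand cluster, with 95% intervals, are plotted against the distance in kb of their start from that of AREG. AREG lies at 2.31, the other 7 genes lie between -1.27 and 0.39, and grey ticks mark the ligand genes EPGN, EREG and BTC, which were under the level filter.

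Genes for the partners that bring ADAM17 to the cell surface were higher, as ADAM17 was. Of 10 tested genes of ligand shedding besides ADAM17, 6 rose and 4 fell, all 10 passing the test, beside 69.7% of all genes tested, with a median log2 fold change of 0.14 against 0.00 over all genes tested. RHBDF1 and RHBDF2 encode the iRhom proteins that escort ADAM17 out of the endoplasmic reticulum. RHBDF1 had 39.2 ± 1.33 CPM in sh-circFTO and 10.3 ± 2.59 CPM in sh-control and rose by 1.92 on the log2 scale. RHBDF2 had 123 ± 6.56 CPM in sh-circFTO and 57.4 ± 4.22 CPM in sh-control and rose by 1.09. FRMD8, which stabilises the complex of iRhom and ADAM17, had 43.6 ± 2.74 CPM in sh-circFTO and 26.05 ± 0.633 CPM in sh-control and rose by 0.74. FURIN, the protease that removes the inhibitory propeptide of ADAM17, went the other way, with 77.7 ± 2.42 CPM in sh-circFTO and 159 ± 7.91 CPM in sh-control, and fell by 1.03. The adjusted p of these 4 genes ran from 4.46e-17 for FURIN to 8.87e-10 for FRMD8 by quasi-likelihood test in edgeR. CD9, a tetraspanin that restrains ADAM17, rose by 0.78 on the log2 scale. TIMP3, an inhibitor of ADAM17, changed by -0.70, ADAM10, another sheddase, by -0.10. When scaled by library size alone, ADAM10 lost its call and its log2 fold change was 0.04. ADAM9, which rose by only 0.09, was not called under filterByExpr or with no filter (adjusted p = 0.139 and 0.199 by quasi-likelihood test in edgeR). DESeq2 called 3 genes of this list lower, against 4 here.

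Downstream of the receptors, genes of the adaptors and of the ERK cascade went in both directions. Of 18 adaptor and RAS-ERK genes, 8 rose and 5 fell, or 11 and 2 when scaled by library size alone, and the median was 0.10. SHC1 and GRB2, the adaptors that link phosphorylated receptors to RAS, had log2 fold changes of 0.62 and 0.55. SHC1 stood at 347 ± 8.22 CPM in sh-circFTO and 225 ± 6.14 CPM in sh-control, and GRB2 at 243 ± 5.32 CPM in sh-circFTO and 166 ± 3.06 CPM in sh-control. SOS2, a RAS exchange factor, rose by 0.45 and NRAS by 0.36. Among the kinases, MAP2K1 rose by 0.21 on the log2 scale. ARAF, BRAF, MAP2K2 and MAPK3 did not pass the test, and their log2 fold changes lay between -0.12 and 0.10. Of 10 PI3K-AKT and STAT genes, 4 rose and 4 fell, with a median of 0.09. The kinase gene PDPK1 fell by 0.83, while PLCG1, which encodes phospholipase C gamma, rose by 0.84 and the catalytic subunit gene PIK3CB by 0.69.

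Of 15 tested genes tied to receptor down-regulation, in whichever direction they act on it, 8 rose and 4 fell. When scaled by library size alone, 10 rose and 4 fell. The median was 0.34, and 3 did not pass the test. The phosphatase gene PTPN1 had 182 ± 4.64 CPM in sh-circFTO and 85.0 ± 3.26 CPM in sh-control and rose by 1.09. STAM and HGS, which sort internalised receptors for degradation, rose by 0.92 and 0.88, and SOCS5, which promotes EGFR degradation, by 0.84. LRIG3, a member of a family of transmembrane proteins that includes the EGFR inhibitor LRIG1, fell by 1.30, and LRIG1 fell by 0.58. Among 16 tested genes of ERK output and feedback, 8 rose and 4 fell, with a median of 0.10. ETV5 and ETV4, ETS factors induced by ERK, fell most: ETV5 had 29.9 ± 0.625 CPM in sh-circFTO and 115 ± 1.03 CPM in sh-control, and ETV4 had 141 ± 3.25 CPM in sh-circFTO and 360 ± 13.1 CPM in sh-control. Their log2 fold changes were -1.94 and -1.36. CCND1, which encodes cyclin D1, had 731 ± 5.19 CPM in sh-circFTO and 357 ± 6.59 CPM in sh-control and rose by 1.04, and PHLDA1 rose by 0.75. The AP-1 genes FOSL1 and FOS rose by 1.57 and 0.71, and EGR1 by 0.42. Among feedback inhibitors, the phosphatase gene DUSP5 rose by 0.90, while DUSP6 fell by 0.46 and SPRY1 by 0.49. Known targets of ERK thus went in both directions. The adjusted p of the genes named as changed in this and the preceding paragraph ran from 4.11e-22 for ETV5 to 0.00659 for MAP2K1 by quasi-likelihood test in edgeR. The shares of genes called in the 4 lists, from 72.2% to 80.0%, lay near the 69.7% of all genes tested.

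**Figure D5:**
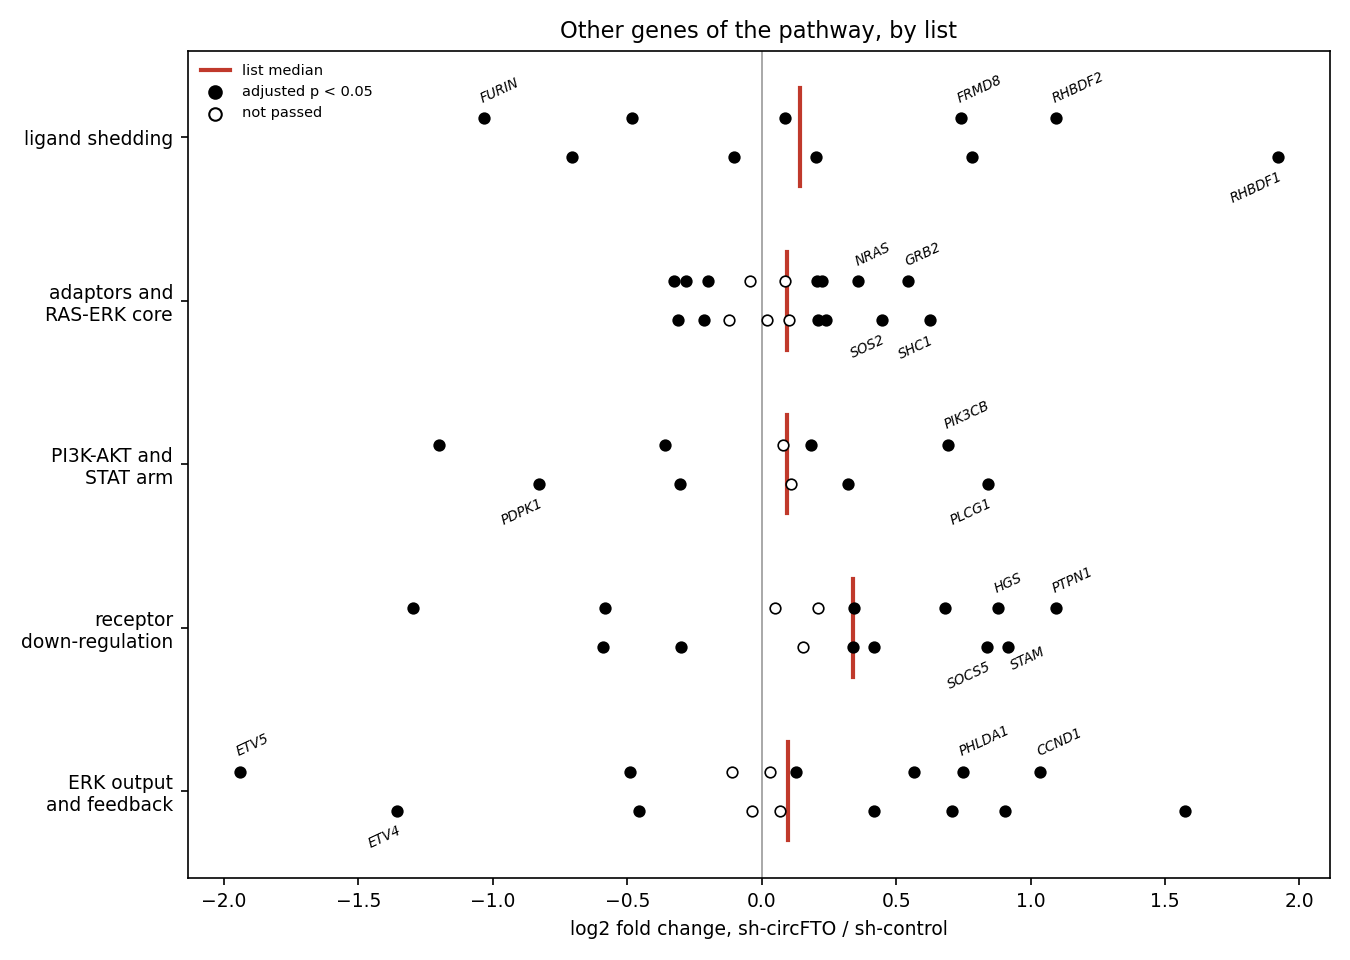
Each point is a tested gene's log2 fold change of sh-circFTO over sh-control, by list, filled where the adjusted p was under 0.05, with the list median as a red line. Medians lie between 0.09 and 0.34, and the farthest genes are RHBDF1 at 1.92 and ETV5 at -1.94.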

How the data were processed

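One table was used, with deposited raw counts per Ensembl gene and FPKM values that the authors computed, per the file headers. The FPKM equalled count over exonic length and library total, to within 0.00501. No aligner or counter is named in the sources used here. GRCm38, mm10 and hg18 stand in the submitters' processing notes, yet the identifiers are human: 56764 of 58337 genes shared with GENCODE 29 had both ends within 5000 bp on GRCh38.

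Counts were compared with edgeR 4.0.16 in R 4.3.3: a filter of FPKM 1 or more in 3 or more libraries, TMM, glmQLFit and glmQLFTest, Benjamini-Hochberg over 12865 genes at 0.05. SEs are the coefficient over the root of F. Members and lists were chosen with earlier results of these data known. Named genes were the 10 members, other EGF family genes, up to 4 genes per list by adjusted p, the chromosome 4 neighbours and 3 genes nearest AREG in log2(CPM + 0.5) centred on each gene's sh-control mean; others were chosen after their values were seen, and some genes are not reported here. The fit was tested on simulated data with far fewer changed genes than here (170 calls). It recovered 50% of 1.25-fold changes and 96% of 2-fold changes. No library copied another (chi-square per degree of freedom 2.04 to 4.28 within groups).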

Additional observations from a re-analysis of the deposited data

How the results depend on the processing

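Alternatives were median-of-ratios factors in edgeR, library size only, DESeq2, no filter, filterByExpr, the replicate number as a block, and each library left out. Over them AREG ran from 2.23 to 2.46 on the log2 scale, EGFR from 1.07 to 1.27, ERBB2 from 0.22 to 0.40, ERBB3 from -1.89 to -1.71, ERRFI1 from -1.09 to -0.92, ADAM17 from 0.80 to 0.96, TGFA from -0.98 to -0.78 and HBEGF from 0.09 to 0.37, and none of these 8 changed direction or call. HBEGF came nearest to a call with library size only (adjusted p = 0.0886 by edgeR, over a range to 0.732 without sh-control replicate 2). All genes called numbered 8969, against 8423 to 8764 with each library left out and 8481 to 10306 under the other alternatives, the highest without a filter. Of the list counts, only the adaptor and RAS-ERK genes called lower moved by more than 1.5 times, to 2 with library size only, against 5. The replicate block gave 8999 calls and 7 of the 10 members, and changed no call among them. Same-numbered libraries did not deviate together (correlations -0.00176, -0.0132 and 0.0648), and only 1 of 3 libraries matched its own number best. The labels do not say that the numbers pair libraries. With so few libraries per group, and counting noise in each, these correlations cannot exclude pairing. For HBEGF, TGFA and EREG the low counts limit the precision.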

Other observations

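Between AREG and BTC lies a gene without a symbol in the deposited table, ENSG00000249942, which GENCODE 29 annotates as antisense (chromosome 4 from 74552584 to 74589481, minus strand). It had 16, 10 and 12 counts in the sh-circFTO libraries and 0 in each sh-control library. Against a floor of 3 counts over the sh-control group and relative to depth after TMM scaling, it was at least 12.01-fold higher in sh-circFTO. That floor covers counting error in the sh-control count of 0 only, not in the sh-circFTO counts. It was chosen after its values were seen, and its reads cannot be assigned to a strand from the sources used here.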
